A study of Arabidopsis thaliana with 12 samples.

Results

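A set of 42 probe sets lost signal under trans-zeatin in wild-type Arabidopsis thaliana roots and showed at most a small fall under trans-zeatin in roots of the arr10 arr12 double mutant. They were chosen from 22746 probe sets by their group means, on the scale log2(mean signal + 7): the highest of the 4 group means had to be at least 40, the difference trans-zeatin minus DMSO at most -0.7 in wild type, and the same difference above -0.25 in arr10 arr12. Of 12011 probe sets that were bright enough, 186 met the wild-type threshold and 43 of these also met the mutant one. CML38, a calmodulin-like gene, was the 1 probe set then left out by name. The rule also excludes expansin, glutaredoxin, glutathione transferase and UGT genes, CML42 and STZ, but none of these was recognised among the 43. Such genes could be recognised only where a probe set had a gene name. Of the 42 members, 23 had a single gene, from 22 loci, and 19 had no entry in the annotation used and are given by probe set identifier.

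The 12 Affymetrix ATH1 arrays fell into 4 groups of 3: arr10 arr12 with trans-zeatin, arr10 arr12 with DMSO, wild-type Col-0 with trans-zeatin, and Col-0 with DMSO. The mutant lines are labelled SALK_098604 and SALK_054752, which are T-DNA insertion lines, and the labels record no rescue line and no ecotype for the mutant. Tissue was roots of seedlings grown for 2 weeks on vertical agar plates. The labels name no dose of trans-zeatin and no treatment time. Titles of the treated arrays read CK in wild type and TZ in the mutant, and the extraction protocol speaks of seedlings where the tissue label says roots. No probe set was listed under ARR10 or ARR12, so the transcripts of the mutated genes were not analysed here. Median signal was 39.3 to 41.6 on every array. PYK10, a beta-glucosidase of root endoplasmic reticulum bodies, had a signal of 3141 to 4214 on the 12 arrays. It was the only gene of 16 root markers with a probe set named for it in the annotation used.

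Cytokinins are adenine-derived hormones that are sensed by histidine kinase receptors, and phosphate is then relayed to response regulators in the nucleus. ARR10 and ARR12 are type-B response regulators, the DNA-binding transcription factors at the end of that relay. Type-B regulators are best known as activators of cytokinin response genes. In roots, cytokinin is known for restricting meristem size and lateral root initiation.

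Since the choice rests on all 12 arrays and on both treatment differences, the levels and treatment differences below describe the members and were not tested. The wild-type difference of the members ran from -1.63 to -0.70 with a median of -0.77, and the mutant difference from -0.24 to 0.36 with a median of -0.09. Over all 12011 bright probe sets the medians were 0.02 in wild type and 0.00 in arr10 arr12. Most members sat close to the wild-type threshold: 26 of 42 had a difference between -0.80 and -0.70, and 8 had a fall of at least 2-fold on this scale. The 3 wild-type trans-zeatin arrays lay below all 3 DMSO arrays in 39 of the 42 members, a condition that also selected 14.2% of all bright probe sets. The exceptions were AT5G10770, AT4G33720 and AT3G15630. In arr10 arr12 the arrays of both treatments overlapped in 39 members, and lay apart in either direction in 14.1% of all bright probe sets.

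**Figure D1:**
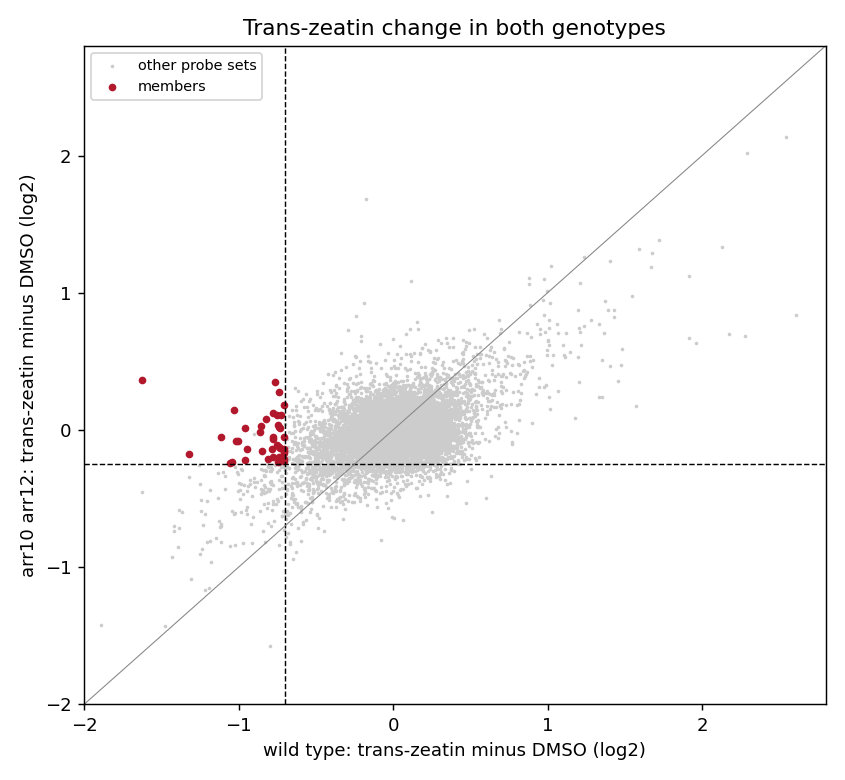
Difference trans-zeatin minus DMSO in arr10 arr12 (vertical axis) against wild type (horizontal axis), both as log2(group mean signal + 7), for the 12011 bright probe sets in grey and the 42 members in red. Dashed lines mark the thresholds of -0.7 and -0.25 and the thin line marks equal change; the members lie just left of the vertical threshold, with 8 at or beyond -1.

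The members just inside the wild-type threshold were AT2G27310, AT2G31945 and 245777_at, each at -0.70. Just outside it were STZ (-0.70), a gene labelled FMO (-0.70) and 253244_at (-0.69). STZ, a stress-induced zinc-finger repressor, therefore missed the threshold before its exclusion by name came into play. Closest inside the mutant threshold were 248794_at (-0.24), AT1G11330 (-0.23) and AT5G64120 (-0.23), and closest outside it 245711_at (-0.25), AT2G22880 (-0.25) and 248793_at (-0.26). The dimmest members had highest group means of 43.3 (246880_s_at), 43.4 (AT5G28610) and 44.4 (AT2G27310), against 39.7, 36.2 and 34.95 for the nearest probe sets that were too dim, 262703_at, 267084_at and AT1G78450.

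The other 143 probe sets with a wild-type difference of -0.7 or less had a mutant difference of -0.25 or less. Their median was -0.45 in arr10 arr12 and -0.88 in wild type. The reverse pattern, a mutant difference of at most -0.7 with a wild-type difference above -0.25, was met by 1 bright probe set, out of 39 with such a fall in the mutant.

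The members differed in where the mutant levels lay. Under DMSO, the mutant mean was below the wild-type trans-zeatin mean in 16 members, between both wild-type means in 21, and above the wild-type DMSO mean in 5. The mutant minus wild-type difference under DMSO ran accordingly from -2.83 to 0.50 with a median of -0.57, and under trans-zeatin from -1.91 to 1.23 with a median of 0.22. Over all bright probe sets these medians were 0.02 and 0.01. The rule used the wild-type DMSO and trans-zeatin arrays, so a high wild-type DMSO value or a low wild-type trans-zeatin value helped a probe set to enter. In whole roots, fewer cells of a type and less RNA per cell cannot be told apart.

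**Figure D2:**
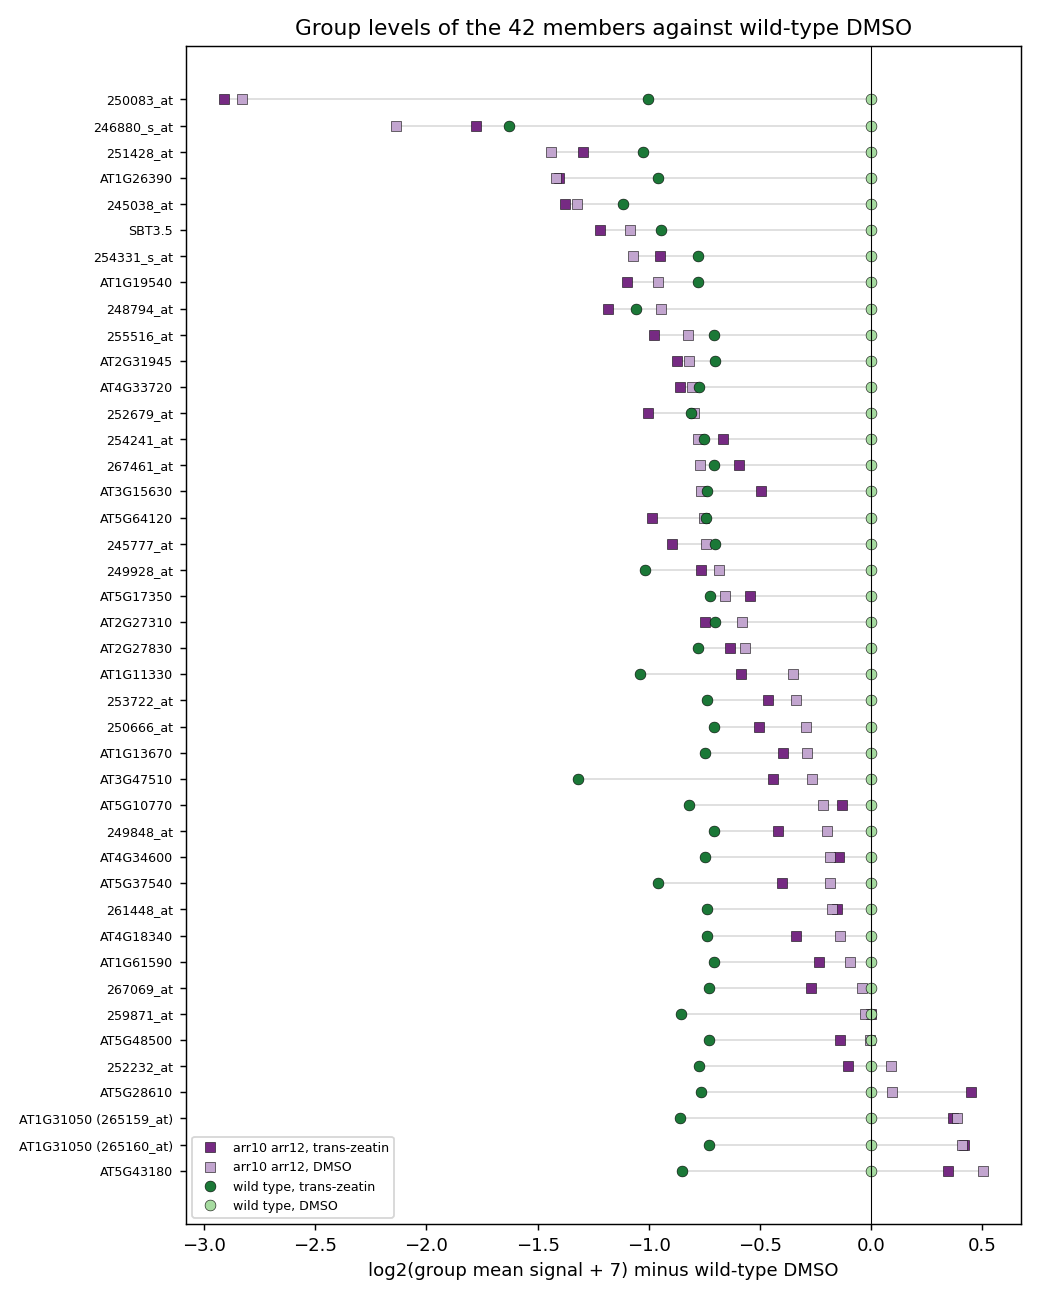
Group levels of the 42 members, as log2(group mean signal + 7) minus the level in wild-type DMSO roots, ordered by the level in mutant DMSO roots; squares are arr10 arr12 and circles wild type, dark for trans-zeatin and pale for DMSO. Both squares lie left of the dark circle at the top (250083_at) and right of the wild-type DMSO level at the bottom (AT5G43180).

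In 16 members the mutant DMSO mean lay below the wild-type trans-zeatin mean. The edge of this class was narrow, with AT5G64120 just inside it (195 against 197) and 252679_at just outside (87.1 against 86.2). Of the class, AT1G26390 encodes an oxidoreductase of the berberine bridge enzyme family (chromosome 1, 9130013 to 9131779, build TAIR10.1). Its signal was 15.7, 18.6 and 13.8 in arr10 arr12 with trans-zeatin, against 14.98, 19.5 and 12.9 with DMSO. In wild type it was 30.5, 20.9 and 21.6 with trans-zeatin, against 65.3, 58.9 and 37.6 with DMSO. All 6 mutant arrays were below all 6 wild-type arrays, and the mutant treatments could not be separated. SBT3.5 (chromosome 1, 11937183 to 11941116) encodes a subtilase, a secreted serine protease. It had 41.4, 52.7 and 41.9 in the mutant with trans-zeatin, against 54.3, 44.1 and 53.2 with DMSO. Wild-type roots had 60.4, 55.8 and 52.7 with trans-zeatin, against 138, 133 and 74.3 with DMSO, so that 1 DMSO array stood well below the other two. The wild-type difference was -0.96 for AT1G26390 and -0.95 for SBT3.5.

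AT5G64120 encodes the class III peroxidase PRX71, a secreted enzyme that acts on cell wall phenolics (chromosome 5, 25659257 to 25661007). Its signal was 142, 171 and 183 in the mutant with trans-zeatin, against 173, 188 and 224 with DMSO. In wild type it was 180, 202 and 208 with trans-zeatin, against 393, 349 and 260 with DMSO. The mutant arrays of both treatments spanned the wild-type trans-zeatin range, and the mutant difference of -0.23 was among the closest to the threshold. AT1G19540, of the family of NmrA-like reductases (chromosome 1, 6765653 to 6768290), had means of 42.04 ± 8.76 in the mutant with trans-zeatin and 47.1 ± 9.24 with DMSO (SD, n = 3 each). In wild type its means were 54.1 ± 1.44 with trans-zeatin and 98.1 ± 6.11 with DMSO.

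AT4G33720 encodes a protein of the CAP superfamily, to which the pathogenesis marker PR-1 belongs (chromosome 4, 16182743 to 16183619). Its wild-type signal was 220, 211 and 236 with trans-zeatin, against 546, 384 and 228 with DMSO, so the groups overlapped and the difference of -0.78 came from 2 of the 3 DMSO arrays. Without wild-type DMSO replicate 1 it was -0.45, below the size that the rule asks for. AT2G31945 had 45.0, 41.4 and 60.2 in wild type with trans-zeatin, against 83.7, 83.1 and 85.1 with DMSO, and mutant means of 42.6 ± 8.57 with trans-zeatin and 44.6 ± 11.5 with DMSO. AT3G15630 was the brightest named member, with 517, 414 and 517 in the mutant with trans-zeatin, against 287, 428 and 481 with DMSO. Wild-type roots had 296, 367 and 558 with trans-zeatin, against 497, 683 and 869 with DMSO, and the arrays overlapped in each genotype.

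The probe sets without a gene name reached the largest values in this class. 250083_at had 22.8, 22.2 and 20.0 in the mutant with trans-zeatin, against 21.3, 23.7 and 24.9 with DMSO. In wild type it had 121, 102 and 77.8 with trans-zeatin, against 266, 210 and 150 with DMSO, so wild type stayed far above the mutant even after the fall. 246880_s_at had the largest wild-type difference of all members, -1.63, with 15.5, 9.68 and 2.65 with trans-zeatin, against 48.5, 29.5 and 51.9 with DMSO. Its mutant signal was 4.43 ± 4.397 with DMSO, under the offset of 7, which thus sets the size of its differences. 245038_at (-1.12), 251428_at (-1.03) and 254331_s_at (-0.78) also lay below the wild-type trans-zeatin level in mutant DMSO roots.

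267461_at was the brightest of all members. It had 1565, 1398 and 1336 in the mutant with trans-zeatin, against 1215, 1317 and 1263 with DMSO, and in wild type 1219, 1290 and 1460 with trans-zeatin, against 1934, 2178 and 2384 with DMSO. It was the only member whose 3 mutant trans-zeatin arrays all lay above the 3 mutant DMSO arrays.

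A second class of 5 members, from 4 probe sets with a gene and 1 without, had a mutant DMSO mean above that of wild type. AT1G31050, which encodes a basic helix-loop-helix transcription factor (chromosome 1, 11075398 to 11079289), was measured by a pair of probe sets. The first, 265159_at, had 145, 122 and 129 in the mutant with trans-zeatin, against 152, 141 and 108 with DMSO. Wild-type roots had 48.7, 49.5 and 58.8 with trans-zeatin, against 90.4, 112 and 99.7 with DMSO. The second, 265160_at, had means of 200 ± 30.1 in the mutant with trans-zeatin and 198 ± 32.2 with DMSO, and of 86.3 ± 6.99 in wild type with trans-zeatin and 148 ± 25.2 with DMSO. The wild-type difference was -0.86 and -0.73 on these probe sets, and the mutant difference -0.02 and 0.01; they report on 1 gene and are not independent.

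AT5G43180 (chromosome 5, 17336291 to 17337884) had 429, 393 and 384 in the mutant with trans-zeatin, against 499, 484 and 364 with DMSO. In wild type it had 178, 184 and 154 with trans-zeatin, against 340, 306 and 300 with DMSO, and all 6 mutant arrays were above all 6 wild-type arrays. 252232_at had tight replicates throughout, with means of 95.6 ± 8.88 in the mutant with trans-zeatin and 110 ± 3.04 with DMSO, and of 57.4 ± 2.86 in wild type with trans-zeatin and 103 ± 3.48 with DMSO. Its mutant arrays did not overlap between treatments, at 104, 86.6 and 95.8 with trans-zeatin, against 112, 112 and 107 with DMSO. The last of the class, AT5G28610, rested on a single array: it had 83.1, 19.4 and 27.7 in the mutant with trans-zeatin, against 32.3, 31.9 and 33.3 with DMSO.

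**Figure D3:**
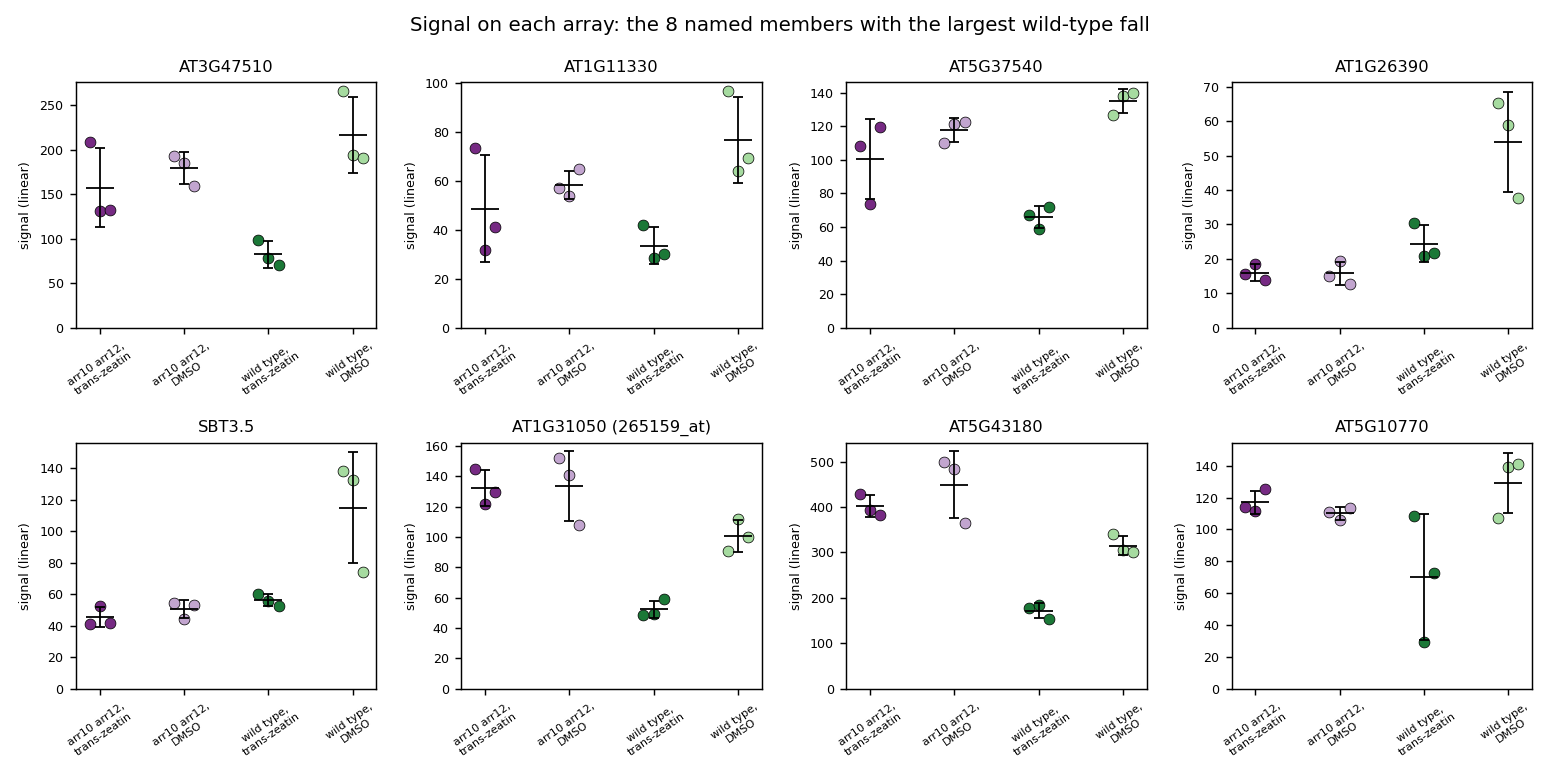
Signal on each array (linear, vertical axis from 0) of the 8 named members with the largest wild-type fall; points are the 3 arrays of a group and bars the mean and SD. AT1G26390 and SBT3.5 are low in both mutant groups, while AT1G31050 and AT5G43180 are high in both.

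In the remaining class of 21, mutant DMSO roots lay between both wild-type levels. It holds 2 genes known from the surveillance of the Casparian strip, the lignin barrier of the endodermis. AT4G34600 encodes the peptide CASPARIAN STRIP INTEGRITY FACTOR 2, a ligand of the receptor kinase that monitors the barrier, and AT1G61590 encodes SCHENGEN1, a cytoplasmic kinase of the same pathway. AT4G34600 (chromosome 4, 16529058 to 16530228) had 195, 236 and 276 in the mutant with trans-zeatin, against 219, 232 and 238 with DMSO. Wild-type roots had 158, 139 and 163 with trans-zeatin, against 263, 259 and 263 with DMSO. AT1G61590 (chromosome 1, 22723368 to 22726190) had 132, 123 and 125 in the mutant with trans-zeatin, against 136, 160 and 124 with DMSO. In wild type it had 82.1, 91.3 and 94.7 with trans-zeatin, against 143, 142 and 165 with DMSO. In both genes the wild-type groups were well separated and the mutant groups overlapped, with wild-type differences of -0.75 and -0.71 and mutant differences of 0.04 and -0.14. A list of 16 other Casparian strip and suberin genes had no probe set with an entry, so no further gene of this barrier was analysed here.

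AT3G47510 had the largest wild-type difference of any named member, -1.32 (chromosome 3, 17510981 to 17511858). Its signal was 208, 132 and 132 in the mutant with trans-zeatin, against 193, 185 and 159 with DMSO, and in wild type 98.9, 78.3 and 70.3 with trans-zeatin, against 265, 194 and 190 with DMSO. AT1G11330, a receptor-like kinase with an S-locus lectin domain (chromosome 1, 3809795 to 3813809), had 73.4, 31.8 and 41.3 in the mutant with trans-zeatin, against 57.0, 53.7 and 64.8 with DMSO. Wild-type roots had 42.2, 28.7 and 30.2 with trans-zeatin, against 96.9, 64.0 and 69.3 with DMSO. In both genes mutant trans-zeatin replicate 1 was the highest array of its group, and the other 2 mutant trans-zeatin arrays were below all 3 mutant DMSO arrays.

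Genes for aspartyl proteases, AT5G37540 (-0.96) and AT5G10770 (-0.82), belonged to the same class. AT5G37540 (chromosome 5, 14912659 to 14914449) had 108, 73.5 and 119 in the mutant with trans-zeatin, against 110, 121 and 122 with DMSO, and in wild type 67.3, 58.6 and 71.9 with trans-zeatin, against 127, 138 and 140 with DMSO. AT5G10770 (chromosome 5, 3403021 to 3405571) was even in the mutant, at 114, 112 and 125 with trans-zeatin, against 111, 106 and 114 with DMSO. Its wild-type trans-zeatin arrays were far apart, at 108, 29.3 and 72.5, against 107, 139 and 141 with DMSO. AT4G18340, of a glycosyl hydrolase family (-0.74), AT2G27310, which encodes an F-box protein (-0.70), and AT2G27830 (-0.78), AT1G13670 (-0.75), AT5G48500 (-0.73) and AT5G17350 (-0.72) completed the named genes of this class.

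The 22 loci were spread over the genome, with 7 on chromosome 1, 3 on chromosome 2, 2 on chromosome 3, 3 on chromosome 4 and 7 on chromosome 5. The nearest neighbours, AT2G27310 and AT2G27830, started 176446 bases apart, so none of the named members were adjacent copies of each other.

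Single arrays decided part of the membership. Mutant trans-zeatin replicate 1 was the highest of its group in 27 of 42 members, and in 9 it was over 1.5 times both other arrays. Without it, 14 members had a mutant difference of -0.25 or less and would not have been chosen, 5 of them at -0.5 or less. In these 5 the mutant difference without that array was -0.84 for 267069_at, -0.59 for AT1G11330, -0.57 for 252679_at, -0.54 for 254331_s_at and -0.51 for 249928_at. With it the values were -0.23, -0.23, -0.21, 0.12 and -0.08. Among the others of the 14 it was -0.46 for AT5G17350, -0.42 for AT3G47510 and -0.37 for AT5G28610, against 0.11, -0.18 and 0.35 with that array. Rapid stress genes that the rule excludes by name were also highest of their group on that mutant array. STZ had 450, 214 and 276 in the mutant with trans-zeatin, and CML38 had 48.8, 26.7 and 31.96. Their part in the result was not tested.

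The median mutant difference of the members was -0.17 without mutant trans-zeatin replicate 1 and between -0.11 and 0.00 without any other mutant array. The median wild-type difference stayed between -0.85 and -0.77 without any 1 wild-type array. Wild-type DMSO replicate 1 was the highest of its group in 19 members, replicate 2 in 8 and replicate 3 in 15. The rule kept 27 to 40 of the 42 members, and returned 32 to 77 in all, when 1 array was left out, and 5 members met it without any single array. These were 245038_at, 250083_at, AT1G26390, SBT3.5 and AT1G31050 (265159_at).

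The rule was also applied to the arrays left after taking 1 replicate number out of every group, and the arrays taken out were then read as values that had no part in the choice. Each reading compares single arrays, the trans-zeatin array with the DMSO array of the same replicate number. Of 12 arrays, 9 correlated best with their own number, and a shared batch was not tested. Without replicate 1, 37 probe sets were chosen; on the arrays left out their median difference was -0.07 in the mutant and -0.63 in wild type, and 10 of 37 met both treatment thresholds again. Without replicate 2, 53 were chosen, with medians of -0.35 in the mutant and -0.78 in wild type, and 11 of 53 met both. Without replicate 3, 119 were chosen, with medians of -0.47 in the mutant and -0.58 in wild type, and 7 of 119 met both. Of all bright probe sets, 1.62%, 0.891% and 0.383% met both thresholds on these same arrays. The wild-type difference was below 0 in 32 of 37, 53 of 53 and 110 of 119, where 45.1%, 46.7% and 51.0% of all bright probe sets were. The mutant difference was above -0.25 in 27 of 37, 18 of 53 and 36 of 119, and below the wild-type difference in 8, 3 and 55 of them. Those above -0.25 were a smaller share each time than the 89.7%, 84.9% and 82.1% of all bright probe sets. That background is not a like group, as only 186 of the 12011 bright probe sets met the wild-type threshold.

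**Figure D4:**
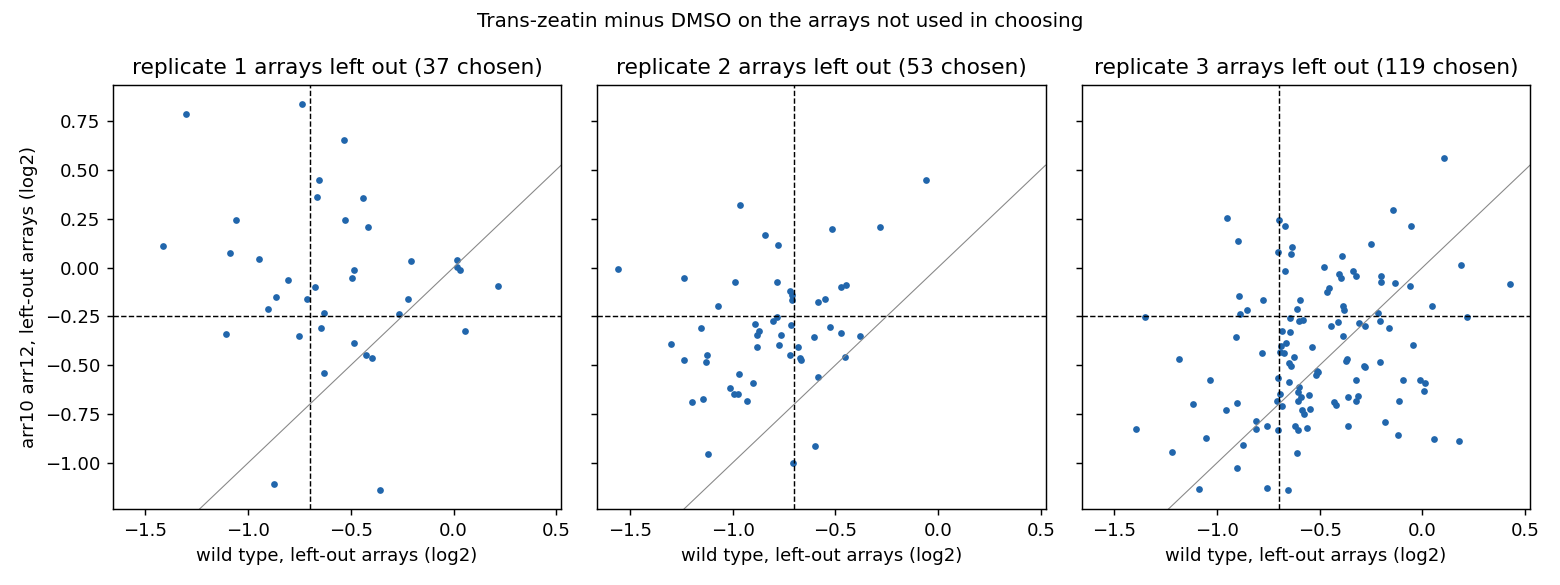
Difference trans-zeatin minus DMSO on the arrays that had no part in choosing, in arr10 arr12 (vertical axis) against wild type (horizontal axis), as log2(signal + 7); each panel leaves out 1 replicate number and each point is a probe set chosen on the others. Dashed lines mark the thresholds of -0.7 and -0.25; with replicate 3 left out, 7 of 119 points fall in the upper left field.

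The genotype difference averaged over both treatments is orthogonal to both treatment differences, but the required signal of 40 acts on the level itself. Of the 42 members, 7 reached 40 in wild type only and 1, AT5G28610, in arr10 arr12 only. A member admitted through 1 genotype had to be high there, so the values of these 8 are a description with no test. The contrast was fitted with limma on log2(signal + 6.65) for the 13647 probe sets above a signal filter, with a threshold of 0.05 on the p adjusted over all of them, and 6.88% were called (4.35% lower and 2.53% higher in arr10 arr12). Of the 34 members that reached 40 in both genotypes, 7 were lower and 4 higher in arr10 arr12. These 4 include both probe sets of AT1G31050, which report on 1 gene. Among all 11437 tested probe sets that reached 40 in both genotypes, 4.15% were lower and 2.47% higher. The rule holds both treatment differences of a member apart, and that background has no such limit. An average other than 0 can then come from 1 treatment alone, so nothing is read from how these shares compare. The median difference was -0.01 over these 34 members and 0.02 over those 11437 probe sets.

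Among the 7 members bright in wild type only, 250083_at had a mean signal of 22.5 ± 1.73 in the mutant and 154 ± 70.95 in wild type (SD, n = 6 each), a log2 difference of -2.36. AT1G26390 differed by -0.93, 251428_at by -0.84, 245038_at by -0.79, 248794_at by -0.53 and AT2G27310 by -0.33. 246880_s_at was below the signal filter.

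Lower in arr10 arr12 among the members bright in both genotypes was SBT3.5, by -0.66 ± 0.12 (SE, adjusted p = 0.0033). AT1G19540 differed by -0.66 ± 0.10 (adjusted p = 0.0006) and the peroxidase gene AT5G64120 by -0.49 ± 0.10 (adjusted p = 0.0059). The others were 255516_at (-0.52), AT2G31945 (-0.51), 245777_at (-0.46) and 267461_at (-0.33). The averages of these members came mainly from the DMSO arrays. There the fitted mutant minus wild-type difference ran from -1.05 (SBT3.5) to -0.74 (AT5G64120 and 245777_at). Under trans-zeatin it ran from -0.34 (AT1G19540) to 0.12 (267461_at). Both ranges are a description, as the rule used these arrays. The call of 245777_at was lost without any of several single arrays, wild-type trans-zeatin replicate 3 among them (-0.37, adjusted p = 0.11). Of the single arrays, AT2G31945 lost its call without that one only (-0.44, adjusted p = 0.051).

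Higher in arr10 arr12 were AT5G43180, with a mean signal of 425 ± 55.3 in the mutant and 244 ± 80.3 in wild type (SD, n = 6 each), by 0.84 ± 0.08 (adjusted p = 1.2e-05), and AT1G31050, by 0.81 ± 0.09 on 265159_at and 0.78 ± 0.10 on 265160_at. 252232_at was higher by 0.38 ± 0.07 (adjusted p = 0.0017). Its fitted difference was 0.09 under DMSO and 0.67 under trans-zeatin, so its average came mainly from the trans-zeatin arrays. For AT5G43180 and AT1G31050 the values ran from 0.38 to 0.49 under DMSO and from 1.14 to 1.23 under trans-zeatin. These single-treatment values are a description. All 6 mutant arrays lay above all 6 wild-type arrays in 2 members, AT5G43180 and AT1G31050 (265160_at), and in 1.23% of all bright probe sets. They lay below in 2 members and in 1.48% of bright probe sets; both members, 250083_at and AT1G26390, were bright in wild type only, so nothing is read from that count. AT4G34600 (0.20 ± 0.08, adjusted p = 0.14) and AT1G61590 (0.19 ± 0.07, adjusted p = 0.15) did not pass, nor did AT3G47510 (0.30 ± 0.12, adjusted p = 0.15).

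Of 16 leaf markers 2 had a probe set with an entry, and both were lower in the mutant in this contrast, with log2 differences of -0.52 for rubisco activase RCA and -0.45 for the light-harvesting gene LHCB4.1. Their summed signal was 345 to 362 in the mutant with trans-zeatin and 331 to 349 with DMSO, against 462 to 484 in wild type with trans-zeatin and 440 to 558 with DMSO. Their part in the genotype difference was not tested. Their wild-type differences with trans-zeatin were -0.02 for RCA and -0.16 for LHCB4.1, and neither passed.

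**Figure D5:**
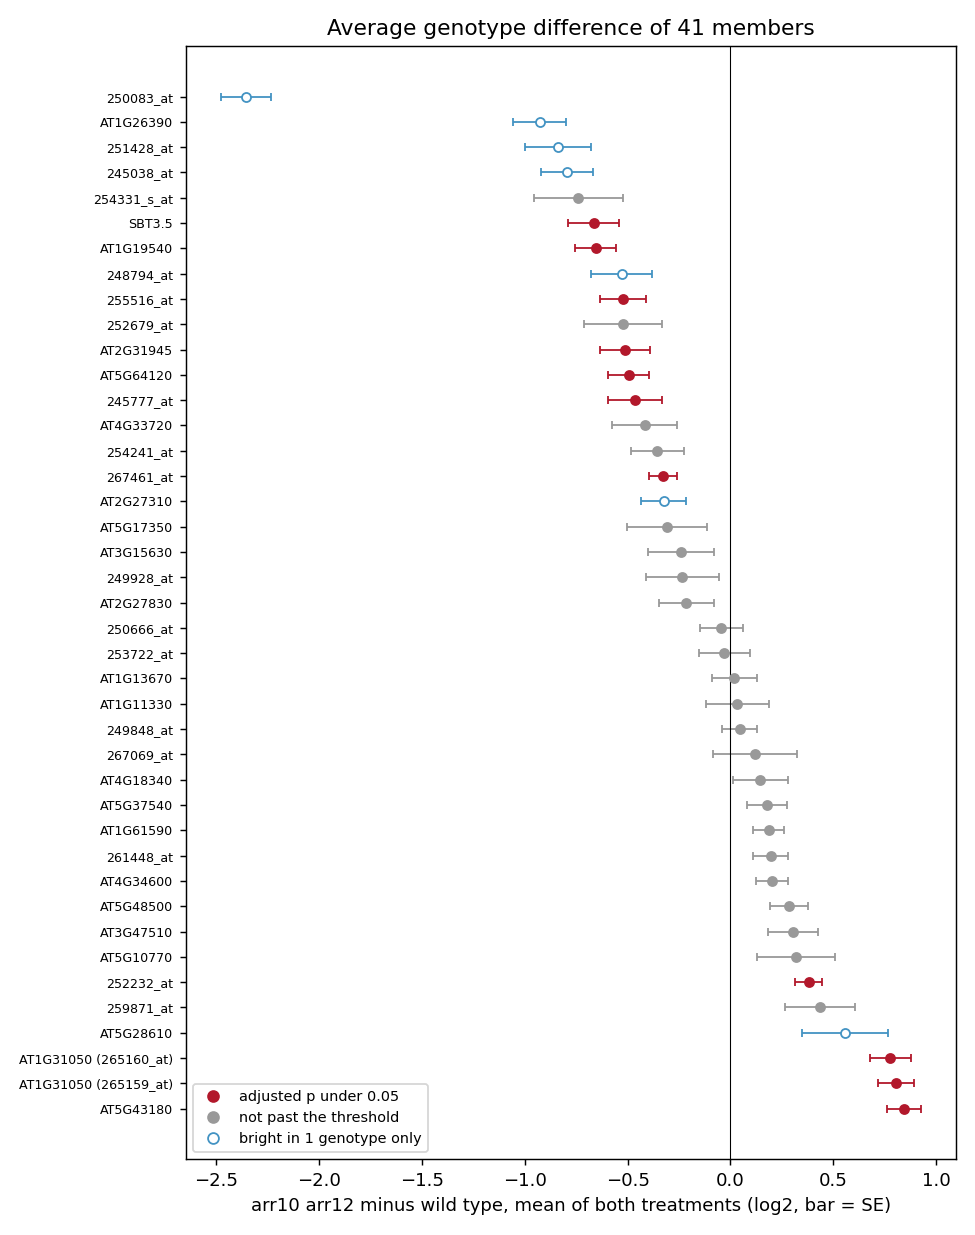
Average genotype difference, arr10 arr12 minus wild type over both treatments (log2, horizontal axis; bars are the SE of the limma fit), of the 41 members above the signal filter. Open blue points are members that reached a signal of 40 in 1 genotype only and were not tested; of the other 34, those in red passed an adjusted p of 0.05, with 7 below 0 and 4 above.

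In the same fit the wild-type fall of 34 of the 41 members was called, with 4.84% of all tested probe sets called as falling, and no member was called in arr10 arr12, with 1.19% of probe sets called in either direction and 0.579% as falling there. The rule fixed both counts, and nothing is read from them. The difference between the responses was called for 1 member, 267461_at, among the 5 probe sets (0.0366%) called in all, and that call was lost in 8 of 18 alternatives.

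Among related genes, 6 other class III peroxidases had a probe set with an entry, and 5 of them were tested. In wild type, the peroxidase genes AT2G41480 (-0.67) and Prx37 (-0.45) fell as well, while AT5G66390 (-0.13), PRXR1 (-0.08) and PRX52 (-0.01) did not pass. AT2G41480 had means of 453 in the mutant with trans-zeatin and 421 with DMSO, and of 223 in wild type with trans-zeatin and 359 with DMSO, an average genotype difference of 0.62 (higher in arr10 arr12). PRX52 (-1.17) and Prx37 (-0.37) were lower in arr10 arr12 in that contrast. The wild-type difference of AT2G41480 was under the size that the rule asks for. Of 5 tested genes picked by calmodulin-related names, CML38 (-0.89) and CML42 (-0.59) fell in wild type and none passed in the mutant. CML23 was lower in arr10 arr12, with an average genotype difference of -0.43.

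Of 9 pathway lists with 176 genes, 18 genes had a probe set with an entry, and none was a member. On 5 lists no gene had such a probe set. On the auxin list, 4 genes were tested, and GH3.3 and LBD16 fell in both genotypes, with differences of -0.96 and -0.61 in the mutant and of -1.18 and -0.95 in wild type. WES1 and HAT2 passed in neither. On the touch and wound list 1 of 4 genes with a probe set was bright enough to be tested, PUB24, which did not pass in wild type (-0.62) or in the mutant (0.17). Neither gene of the cytokinin list with a probe set passed the signal filter, which uses the mean over all arrays. In wild type with trans-zeatin alone, ARR15 had a mean of 59.2 and RR16 of 65.6. In the fit without the filter ARR15, a type-A regulator, rose in both genotypes, by 1.15 in the mutant and by 1.92 in wild type. RR16, the other gene, rose by 2.34 in wild type and did not pass in the mutant (0.71, adjusted p = 0.25). On the iron deficiency list neither PYE (0.04) nor AT3G13610 (-0.11) passed in wild type.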

How the data were processed

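The deposited intensity values are linear signals per probe set, made by the authors with MAS5 and GCOS per the submitters' processing notes. Their versions are not given in the sources. They were used without further normalization. Controls (64 probe sets) were left out. Of 22746 probe sets, 13513 had 1 gene in the platform annotation, 503 several and 8730 no entry; loci and coordinates come from RefSeq (TAIR10.1). Differences of group means are on log2(mean signal + 7). The fit used limma 3.58.1 in R 4.3.3, a mean per group over all 12 arrays with an intensity trend, on log2(signal + 6.65), the 25th percentile of all values, 2-sided, for the 13647 probe sets whose mean log2 value lay above the 40th percentile (a signal of 23.1), with Benjamini-Hochberg adjustment over all of them. Both scales understate changes of dim probe sets. The fit was tested on simulated data. Members were named by rule: all with a single gene, and the 10 largest falls, members called in the genotype difference and threshold neighbours among the rest; 267069_at, 249848_at, 250666_at and 253722_at were named after their values were seen. Members and lists were chosen with earlier results of these data known. The peroxidase name pattern was narrowed after the files were seen, to leave out a peroxiredoxin. Replicate numbers were not used as pairs in the main fit. Of 18 same-numbered pairs, 9 had correlated deviations above 0.1 (range -0.08 to 0.37). Of 12 arrays, 9 correlated best with their own number. Whether same-numbered arrays share a batch was not tested. No label says that replicates were grown apart, so p-values reflect only how far these arrays spread, which may be technical; the number of arrays limits the precision.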

Additional observations from a re-analysis of the deposited data

Results flagged for a closer look

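The response of 267461_at differed between genotypes in the whole-table test of the difference, by 0.88 on the log2 scale (arr10 arr12 response minus wild-type response; adjusted p = 0.021). The call was lost in 8 of 18 alternatives: with no filter (adjusted p = 0.087) and without each of 7 single arrays, with adjusted p from 0.0025 to 0.12 over all 18. Its mutant trans-zeatin arrays all lay above the mutant DMSO arrays, with a difference of 0.18, while its wild-type trans-zeatin arrays all lay below the wild-type DMSO arrays. The choice of members used this contrast, so the value describes the probe set and supports nothing further.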

How the results depend on the processing

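The number of probe sets called in the average genotype difference stayed within 1.5 times 939 under every alternative run (657 to 1092 when 1 array was left out). Over all 13647 tested probe sets, 4.35% were lower and 2.53% higher in arr10 arr12. Of all 41 members fitted, 12 were lower and 4 higher, and 9 to 16 lower and 4 to 6 higher when 1 array was left out. Among the 12 lower members, 5 reached a signal of 40 in wild type only and are a description with no test. Keeping only the 34 members that reached 40 in both genotypes, a restriction chosen after seeing the data, left 7 lower and 4 higher, and 5 to 11 lower and 4 to 6 higher when 1 array was left out (11 without mutant trans-zeatin replicate 1). In the wild-type response the count was 558 to 1355 when 1 array was left out, lowest without trans-zeatin replicate 2, against 1167 in all, and 2193 with array quality weights. In the mutant response it was 59 to 188 when 1 array was left out, lowest without DMSO replicate 3, against 163 in all, and 102 with no filter. The difference between responses had 4 to 9 calls when 1 array was left out, against 5, and 22 with array quality weights. The rule returned 32 to 77 probe sets when 1 array was left out, against 42 in all; the highest counts came without wild-type trans-zeatin replicate 3 (74) and without mutant DMSO replicate 3 (77). Without replicate 3 of every group it returned 119, and with an offset of 32 it returned 22, of which 14 were members. The causes were not tested.

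With the replicate block, 284 probe sets were called in the mutant response, against 163 without it. In the average genotype difference 1199 probe sets were called, against 939, and 7 members were higher, against 4. AT3G47510 (0.30, adjusted p = 0.017) was among those added. Of 12 arrays, 9 correlated best with their own number, and whether same-numbered arrays share a batch was not tested. Signs turned when 1 array was left out for 6 members near 0 that were not called. Their differences ran from -0.0100 to 0.0824 for 249848_at, from -0.0860 to 0.0335 for 250666_at, from -0.127 to 0.0539 for 253722_at, from -0.0485 to 0.107 for AT1G13670, from -0.12 to 0.15 for AT1G11330 and from -0.12 to 0.31 for 267069_at.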
